A study of Mus musculus with 444 samples.

Results

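Ddx60 and 8 further interferon-stimulated genes, Ifit1, Ifit3, Isg15, Stat2, Irf7, Bst2, Ifi27l2a and Ifih1, were followed in single epithelial cells of the mouse mammary gland at puberty and in adulthood. These 9 genes of the 25136 genes kept were taken by name and matched through their gene identifiers. Ddx60 was picked for its high level in pubertal cells and near absence from adult cells, so its stage difference is a description, and the question was whether that difference extends to the other interferon-stimulated genes. The cells came from mammary glands of FVB/NJ females, an inbred laboratory strain, and were labelled total epithelium. The labels divide them into 221 cells of puberty and 223 cells of adulthood, give no age in weeks and no treatment, and name no animal. The methods of the study put the pubertal mice at about 5 weeks and the adult mice at 10 weeks, whereas the deposited pubertal tables are marked 4 weeks. Mice were pooled, 6 per sort for puberty and 4 per sort for adulthood, in 3 independent experiments, and nothing ties a cell to its sort. Per the study's methods, single cells were captured on a Fluidigm C1, a microfluidic device with 1 cell per chamber, from cells sorted as negative for blood and endothelial surface proteins.

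Interferons are signalling proteins that cells release when they sense foreign nucleic acid. Sensors such as the RNA helicases encoded by Ddx58 and Ifih1 act through the adaptor encoded by Mavs to switch on interferon genes, and Irf7 encodes a transcription factor that amplifies this step. Secreted type I interferon then binds a receptor on the same or a neighbouring cell, whose kinases activate transcription factors of the STAT family, Stat2 among them. Together with Irf9, these enter the nucleus and bind the interferon-stimulated response element, a short sequence with a repeated GAAA, in the promoters of antiviral genes. In the mammary gland, an inner luminal layer and an outer basal, or myoepithelial, layer line the ducts, and the luminal layer holds progenitor cells and mature hormone-sensing cells.

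The promoters of these genes are shown for the elements through which Stat2 and its partners act. The RefSeq windows, on GRCm38.p6, span 250 bases before to 50 bases after the annotated start, and 8 of the 9 genes had one. Ifi27l2a had none. In the sequences below, read 5′ to 3′ on the gene's strand, capitals mark matches to GAAANNGAAA on either strand, the core of the interferon-stimulated response element. Overlapping matches are joined into 1 run. Irf7 is included as the window without a match.

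Ddx60, chr8:61927837-61928136, plus strand: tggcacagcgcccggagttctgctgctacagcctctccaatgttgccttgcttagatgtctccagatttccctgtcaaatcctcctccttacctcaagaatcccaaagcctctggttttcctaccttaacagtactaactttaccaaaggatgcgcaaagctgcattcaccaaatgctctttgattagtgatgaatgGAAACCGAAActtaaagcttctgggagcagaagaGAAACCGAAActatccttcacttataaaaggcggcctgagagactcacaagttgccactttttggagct

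Ifih1, chr2:62646206-62646505, minus strand: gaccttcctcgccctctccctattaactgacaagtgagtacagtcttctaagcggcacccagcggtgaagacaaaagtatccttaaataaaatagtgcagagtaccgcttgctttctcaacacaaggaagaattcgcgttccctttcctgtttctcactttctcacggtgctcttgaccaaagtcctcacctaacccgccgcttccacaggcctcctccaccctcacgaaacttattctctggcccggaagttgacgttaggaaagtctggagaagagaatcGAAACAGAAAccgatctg

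Stat2, chr10:128270248-128270547, plus strand: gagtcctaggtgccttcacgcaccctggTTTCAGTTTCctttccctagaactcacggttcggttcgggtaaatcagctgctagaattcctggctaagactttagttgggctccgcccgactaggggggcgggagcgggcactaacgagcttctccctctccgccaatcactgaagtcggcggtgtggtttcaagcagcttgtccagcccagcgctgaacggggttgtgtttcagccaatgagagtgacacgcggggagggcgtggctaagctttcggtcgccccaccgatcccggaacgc

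Isg15, chr4:156200769-156201068, minus strand: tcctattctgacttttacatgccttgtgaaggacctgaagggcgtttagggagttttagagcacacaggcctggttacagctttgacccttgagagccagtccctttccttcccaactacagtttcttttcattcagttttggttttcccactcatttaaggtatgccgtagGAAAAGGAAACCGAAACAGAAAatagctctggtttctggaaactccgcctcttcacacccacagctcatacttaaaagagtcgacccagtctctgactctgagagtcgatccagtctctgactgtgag

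Irf7, chr7:141266375-141266674, minus strand: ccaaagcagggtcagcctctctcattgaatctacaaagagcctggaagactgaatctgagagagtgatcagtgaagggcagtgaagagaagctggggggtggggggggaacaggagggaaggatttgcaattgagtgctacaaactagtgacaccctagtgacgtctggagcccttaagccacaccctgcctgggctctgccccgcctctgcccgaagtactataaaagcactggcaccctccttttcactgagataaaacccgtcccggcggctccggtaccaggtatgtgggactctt

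Of the 8 windows, 7 held the motif. It was found in 3.44% of all 32851 RefSeq windows of the same length. The Ddx60 window held 2 matches, starting 53 and 19 bases before the start, both with the letters gaaaccgaaa. Isg15 had 3 matches that overlapped each other. Ifit1, Ifit3 and Bst2 had 2 matches each, while Stat2 and Ifih1 had 1 each, the latter lying after the start. Absence of these letters from the Irf7 window says nothing about sites outside it, and a match is not a measured binding site.

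After the coverage filter of the study, which asks for at least 100000 read pairs and 1500 genes in a cell, 171 pubertal and 152 adult cells remained. These are fewer cells in each stage than the study states, and the lists of removed genes were rebuilt here. With mitochondrial and ribosomal genes counted towards the minimum, 186 pubertal and 168 adult cells would pass. Before the filter, a pubertal cell had between 2 and 1456360 read pairs and an adult cell between 1 and 1167991. The counts of every retained cell were thinned to a depth of 100000 read pairs, so that 1 read in a cell equals 10 CPM, the count scaled to a common total for every cell, and the level of a group is the mean CPM of its cells. With no animal or sort named for any cell, each stage counted as 1 sample. No test was therefore possible, no difference has a replicate check, and all intervals are 95% intervals of counting error only. The adult cells numbered 48 to 188 in their titles stand apart from the other adult cells: after thinning, Rn7sk, the gene of a small nuclear RNA, had reads in 103 of these 107 cells and in 4 of the other 45. Values against each set are given where they bear on a result.

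Ddx60, which encodes an RNA helicase induced by interferon, separated the stages more sharply than any other of the 9 genes. It lies on chromosome 8 from 61928073 to 62037704 and overlaps no other annotated gene. In puberty it had 1035 reads in 49 of the 171 cells, a level of 60.5 CPM (56.9 to 64.3), and the lowest cell and the median cell were at 0. Single pubertal cells reached 2870 CPM. In the adult it had 1 read in 1 of the 152 cells, a level of 0.0658 CPM (0.00167 to 0.367). No cell of the set numbered 48 to 188 had a thinned read, which allows a share of up to 2.80% of its cells, and 0.935% of them had a read without thinning. The ranges of single cells overlapped at 0, and the single adult cell with a read was at 10.0 CPM. The share of cells with a read was 28.7% (22.0 to 36.1%, exact Clopper-Pearson) in puberty and 0.658% (0.0167 to 3.61%) in the adult, and 34.5% and 1.97% without thinning.

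The ratio of the Ddx60 levels was 920 (165 to 36373), and on the log2 scale with 1 CPM added to both stages it was 5.85 (5.49 to 5.94). The size of the latter depends on the amount added. The genes tested were the 15099 with 1 CPM or more in at least 3 retained cells. Of these, 3 genes, Ddx60 included, had at least as many pubertal reads as Ddx60 and at most 1 adult read. These limits are the counts of Ddx60 itself, which was chosen for this difference, so this number is a description. The other two, Tnni2 and Pate6, had reads in only 1.17% and 1.75% of pubertal cells. Ddx60 thus had by far the widest spread over cells of the 3.

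**Figure D1:**
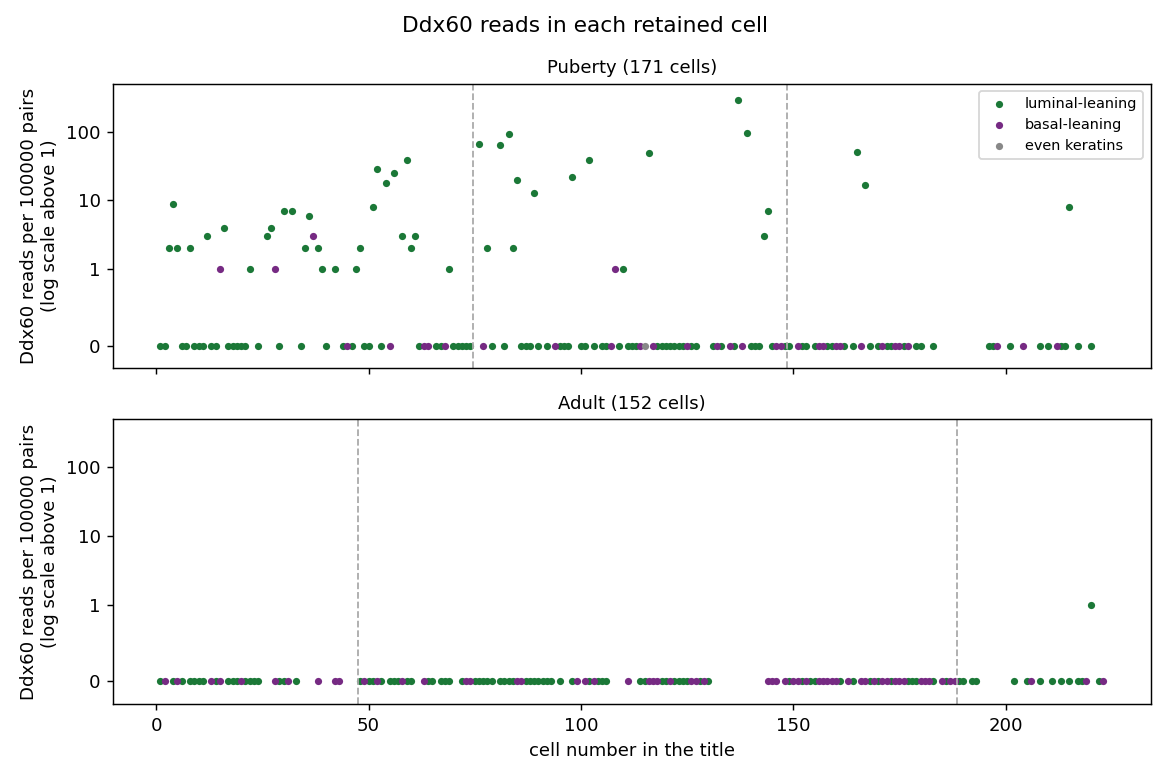
Ddx60 reads in each retained cell after thinning (vertical axis, logarithmic above 1) against the cell's number in its title (horizontal axis), for puberty above and the adult below, with luminal-leaning cells in green and basal-leaning cells in purple. Dashed lines mark cells 74 and 148 in puberty and the set 48 to 188 in the adult; reads were found in 49 pubertal cells and 1 adult cell.

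Ddx60 reads were unevenly spread over the pubertal cells. Of the 49 cells with a read, 24 had 1 to 3 reads and 16 had 10 or more. The 10 highest cells held 78.7% of all reads, led by a cell with 287 and followed by one with 97. The titles number the cells but do not say which capture they came from. Among cells 1 to 74, 45.5% had a read, at a level of 29.1 CPM, and the median cell with a read had 3. Cells 75 to 148 had a read in 25.0%, at 120 CPM, with a median of 21.0 reads in the cells that had any. In cells 149 to 221 the share was 7.32%, or 3 of 41 cells, at 18.5 CPM. The share of cells and the level thus ran in different orders over these runs. In cells 1 to 50, a run chosen after its values were seen, 21 of 44 cells had a read and none had more than 9 reads.

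These runs also differed in the makeup of their cells. Luminal-leaning cells, defined by more Krt8 and Krt18 than Krt5 and Krt14, made up 87.9% of cells 1 to 74, 79.7% of cells 75 to 148 and 68.3% of cells 149 to 221. Within luminal-leaning cells alone, the shares with a Ddx60 read were 46.6%, 29.4% and 10.7% in the same order. Against the adult, the log2 ratio of Ddx60 was 4.82, 6.83 and 4.20 for the successive runs. With Ddx60 chosen for its near absence from adult cells, these values are a description.

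The remaining sensor among the members, Ifih1, encodes MDA5, a helicase that detects long double-stranded RNA. It was at 33.5 CPM (30.8 to 36.4) in puberty, with reads in 34 cells and a highest cell of 2590 CPM, and at 6.38 CPM (5.18 to 7.78) in the adult, with reads in 6 cells and a highest cell of 820.0 CPM. The median cell was at 0 in both stages, as it was for each of the 9 genes. The shares were 19.9% (14.2 to 26.7%) and 3.95% (1.46 to 8.39%). The log2 ratio was 2.22 (1.95 to 2.51). It was 1.90 against adult cells 48 to 188 and 3.52 against the other adult cells. A single adult cell held 84.5% of the adult reads, and in puberty the top cell held 45.2%. The gene overlaps the annotated Gm39839, and the use of strand in counting was not stated.

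Of the transcription factors, Stat2, a part of the complex that binds the response element, had the higher level in puberty but not the higher share of cells. Its level was 85.4 CPM (81.1 to 89.9) in puberty and 26.9 CPM (24.4 to 29.6) in adult cells, which gives a log2 ratio of 1.63 (1.48 to 1.79). The highest pubertal cell was at 2080 CPM and the highest adult cell at 990.0 CPM. The share of cells with a read was 22.2% (16.2 to 29.2%) in puberty against 25.7% (18.9 to 33.4%) in adulthood, or 31.0% against 41.4% without thinning. The stages therefore differed in how many reads a positive cell had, with a median of 20.5 in puberty and 3 in the adult. Stat2 overlaps Apof.

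Irf7, the factor that amplifies interferon production, was at 15.8 CPM (14.0 to 17.8) in puberty, with reads in 16 cells, and at 0.592 CPM (0.271 to 1.12) in the adult, where 1 cell held all 9 reads. The shares were 9.36% (5.44 to 14.7%) and 0.658% (0.0167 to 3.61%). The log2 ratio was 3.40 (2.95 to 3.75). In puberty 1 cell held 51.5% of the reads, at 1390 CPM, and this cell carried 2 or more fibroblast or endothelial markers. Without the cells that carried such markers, 30 in puberty and 22 in the adult, the log2 ratio of Irf7 was 2.42.

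The 5 antiviral effectors among the members did not share a pattern. Ifit1, which encodes a protein that binds viral RNA, was at 21.9 CPM (19.7 to 24.2) in puberty, from 6 cells, and at 15.5 CPM (13.5 to 17.6) in the adult, from 4 cells, of which 1 held 87.7% of the reads. Its log2 ratio was 0.47 (0.25 to 0.70), and its shares, 3.51% (1.30 to 7.48%) and 2.63% (0.722 to 6.60%), overlapped widely. Isg15, a ubiquitin-like protein attached to other proteins, had 61 reads in 10 pubertal cells, or 3.57 CPM (2.73 to 4.58), and 27 reads in 2 adult cells, or 1.78 CPM (1.17 to 2.58). Its log2 ratio was 0.72 (0.24 to 1.18), with a single adult cell holding 63.0% of the adult reads. Neither gene reached a 2-fold difference on the log2 scale with 1 CPM added.

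Ifit3, whose product works with that of Ifit1, had 130 reads in 3 pubertal cells, 90 of them in 1 cell, and no adult read. Its pubertal level of 7.60 CPM was at least 38.5-fold higher than the adult level that 3 reads in the whole adult group would give. All 3 cells carried 2 or more fibroblast or endothelial markers, and without such cells Ifit3 had no read in either stage. Counts of Ifit3 are also uncertain because its paralog Ifit3b is nearly identical. Bst2, or tetherin, which holds budding virus at the cell surface, had 4 reads in 2 pubertal cells and 10 reads in 5 adult cells, and its log2 ratio of −0.43 (−0.79 to 0.09) had an interval that included 0. At this depth no difference was detectable for Bst2.

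Ifi27l2a, a small interferon-induced gene that overlaps Ifi27, had the largest read sums of the 9 genes and depended most on which adult cells were taken. Its level was 112 CPM (107 to 117) in puberty and 80.2 CPM (75.8 to 84.8) in adult cells, which gives a log2 ratio of 0.48 (0.38 to 0.58). The adult cells numbered 48 to 188 were at 3.08 CPM and the other adult cells at 264 CPM, so that the log2 ratio was 4.79 against the former and −1.23 against the latter. A single cell held 68.0% of the pubertal reads, at 13050 CPM, and a single cell held 85.1% of the adult reads, at 10370 CPM. Both cells carried 2 or more fibroblast or endothelial markers. Cells with such markers held 1728 of the 1918 pubertal reads and 1190 of the 1219 adult reads, and without them the log2 ratio was 2.16. The share of cells with a read was 17.0% (11.7 to 23.4%) among pubertal cells and 5.26% (2.30 to 10.1%) among adult cells.

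Per kilobase of transcript, the pubertal levels ran from 242 CPM per kb for Ifi27l2a through 19.4 for Stat2, 10.1 for Ddx60, 8.49 for Irf7, 8.29 for Ifit1, 6.07 for Ifih1, 4.72 for Isg15 and 3.80 for Ifit3 to 0.304 for Bst2. In the adult, Ifi27l2a was first at 173 CPM per kb, Stat2 second at 6.12 and Ifit1 next at 5.86, while Ddx60 was at 0.0110. In puberty, Ddx60, Irf7, Ifit1 and Ifih1 lay within 2-fold of each other, and with the reads of each gathered in few cells their order is not firm.

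Of the 8 genes other than Ddx60, 4 had a log2 ratio of 1 or more, here counted as higher in puberty, namely Ifih1, Stat2, Irf7 and Ifit3. Among the 15099 genes tested, 21.7% did so. Ddx60 itself, chosen for this difference, is not part of the count. With a higher share of cells required as well, 3 of the 8 and 18.1% of all genes were counted. None of the 8 was 2-fold or more lower, as were 14.7% of all genes. The median log2 ratio of the 8 was 1.17, and that of all genes was 0.10. Leaving out the highest cell of each stage for every gene left 7 of the 8 counted as higher, Bst2 being the exception, and 21.6% of all genes. For the genes so added, Ifit1, Isg15 and Ifi27l2a, the top adult cell held 87.7%, 63.0% and 85.1% of the adult reads. The top pubertal cell held 45.5%, 27.9% and 68.0% of theirs, so this step took a larger part of their adult reads.

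**Figure D2:**
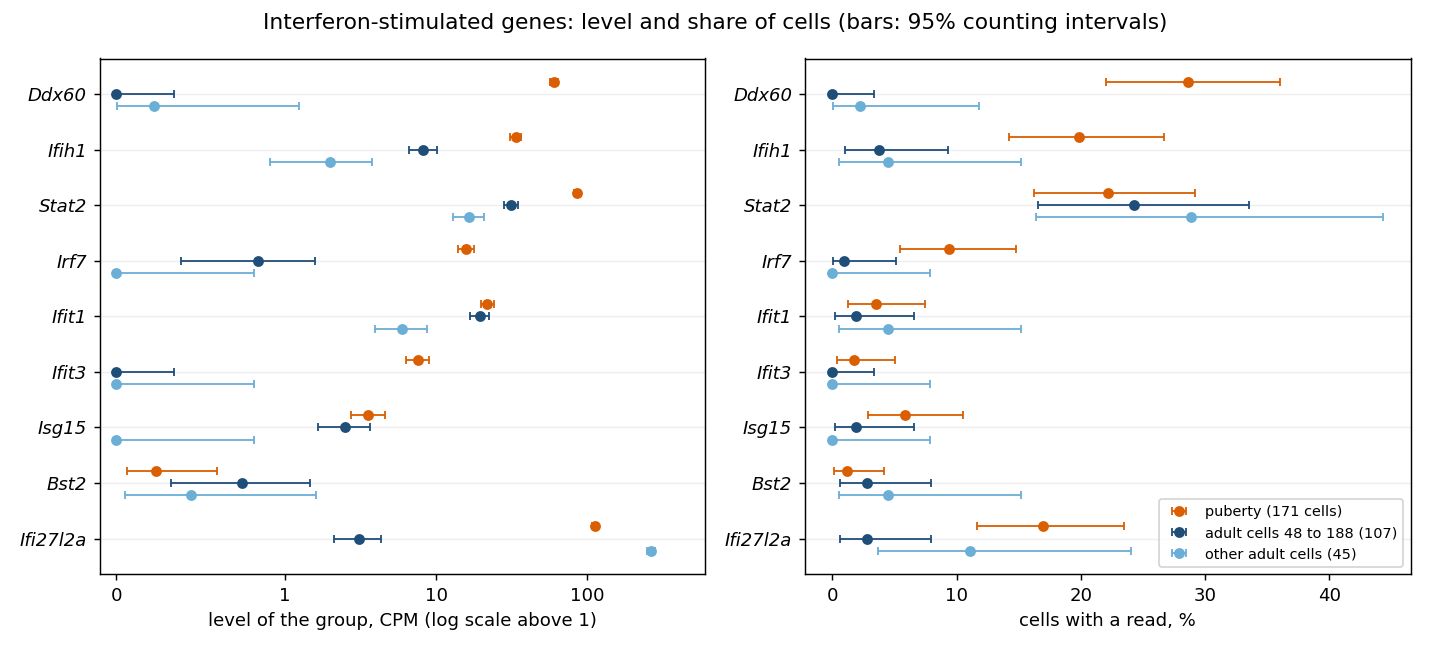
Level in CPM (left, logarithmic above 1) and share of cells with a read (right) of the 9 genes in pubertal cells, adult cells 48 to 188 and the other adult cells; bars are 95% counting intervals. Ddx60 and Ifih1 had pubertal shares of 28.7% and 19.9%, the shares of Stat2 overlapped in all 3 groups, and Ifi27l2a was highest in the other adult cells.

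To see whether the pattern of Ddx60 reached further into the pathway, a list of 98 interferon genes was grouped by role, the 9 genes included. Of the list, 88 genes passed the expression filter. In puberty 35 of them (39.8%) were 2-fold or more higher, against 21.7% of all genes, and 9 (10.2%) were 2-fold or more lower, against 14.7%. The median log2 ratio was 0.52. Without the 9 members, 30 of 79 (38.0%) were higher, 9 were lower, and the median was 0.48. Both sets of adult cells gave more genes higher than lower in the list: 42 higher and 9 lower against cells 48 to 188, where 27.8% and 14.5% of all genes were, and 40 higher and 14 lower against the other adult cells, where 32.8% and 14.9% were. The median of the list was 0.95 and 0.59 in these comparisons, and that of all genes 0.21 and 0.30. Without the 9 members the list median was 0.92 against cells 48 to 188. Against the other adult cells it was 0.32, close to that of all genes, and 44 of 79 genes (55.7%) lay above 0 where 61.5% of all genes did.

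The interferons themselves were scarcely measured. Of 10 ligand genes, 3 passed the filter and all 3 were lower in puberty. Ifnk, which encodes the epithelial interferon kappa, had 1 pubertal read and 191 adult reads. The interferon lambda genes Ifnl2 and Ifnl3, near-identical paralogs, had no pubertal reads and 46 and 45 adult reads. No read of Ifnb1, Ifna2, Ifna4, Ifna5, Ifnz or Ifng was found in a retained cell of either stage after thinning, and Ifne had 39 reads in 1 adult cell and did not pass the filter.

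The counts by role are to be read against the 21.7% of all genes that were higher, the 14.7% that were lower and the median of 0.10. Among the receptors, 1 of 6 was higher and 1 lower, with a median log2 ratio of 0.42. Ifngr2, a chain of the interferon gamma receptor, was at 72.5 CPM in pubertal against 35.0 CPM in adult cells, and Ifnlr1, a chain of the lambda receptor, was at 6.96 and 16.2 CPM. Both chains of the type I receptor were below a 2-fold difference and went in opposite directions: the pubertal level of Ifnar1 was 82.6 CPM and its adult level 58.8 CPM, and Ifnar2 was at 40.8 and 74.1 CPM.

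Of 14 signal transducers and transcription factors, 4 were higher, among them Stat2, Irf7 and Usp18, and 3 were lower, Tyk2, Irf5 and Socs3, with a median of 0.23. Usp18, which removes Isg15 from proteins and restrains the type I receptor, was at 85.1 CPM in 24.0% of pubertal cells and at 6.91 CPM in 3.29% of adult cells, a log2 ratio of 3.45 (3.19 to 3.71). Its reads were not gathered in 1 pubertal cell, the top cell holding 8.31%. Irf9, which joins Stat2 in that complex, was at 51.4 CPM in pubertal cells and at 73.7 CPM in adult ones.

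Socs3, an inhibitor of cytokine signalling, had the largest difference in the other direction, with a pubertal level of 2.05 CPM, an adult level of 54.7 CPM and a log2 ratio of −4.19 (−4.54 to −3.84). Tyk2, a kinase of the type I receptor, was at 6.37 and 21.8 CPM, but 1 adult cell held 98.2% of its adult reads, and its share was higher in puberty, at 8.19% against 1.97%. Against adult cells 48 to 188 the log2 ratio of Tyk2 was 2.33.

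Of the 12 sensors and adaptors other than Ddx60, 6 were higher and none was 2-fold or more lower, with a median log2 ratio of 0.93. Besides Ifih1 these were Ddx58, Dhx58, Mavs, Tlr3 and Zbp1. Ddx58, which encodes RIG-I, was at 147 CPM in pubertal and 58.9 CPM in adult cells. Dhx58, which encodes the related LGP2, was at 25.0 CPM in 9.94% of pubertal cells and 1.91 CPM in 1.97% of adult cells, a log2 ratio of 3.16 (2.77 to 3.53). Tlr3, an endosomal sensor of double-stranded RNA, had a log2 ratio of 1.62 (1.40 to 1.85), with 4.33 against adult cells 48 to 188 but 0.03 against the other adult cells. Mavs, the adaptor of the RNA helicases, was at 40.2 and 8.95 CPM, while its shares were 14.6% and 13.8%.

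Antiviral effectors made up 52 of the genes tested, of which 23 were higher and 2 were lower, with a median of 0.77. Ifi44 came closest to Ddx60 within the list, with 622 reads in 20 pubertal cells and 1 read in 1 adult cell and a log2 ratio of 5.13 (4.76 to 5.22). Rtp4 was at 166 CPM in 38.0% of pubertal cells and 32.2 CPM in 9.87% of adult cells, and Dtx3l, whose product pairs with that of Parp9, at 70.3 CPM in 49.1% and 16.2 CPM in 17.1%. Their log2 ratios were 2.33 (2.20 to 2.47) and 2.05 (1.86 to 2.24). Xaf1 had a log2 ratio of 1.90 (1.75 to 2.05) and Isg20, an RNA exonuclease, 1.56 (1.38 to 1.75).

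Uba7, the enzyme that activates Isg15, had a log2 ratio of 3.80 (3.37 to 4.17), although 1 pubertal cell held 52.6% of its reads. Irgm2, an interferon-inducible GTPase, was at 35.2 and 4.80 CPM. Oasl2, of the oligoadenylate synthetase family, was at 56.0 and 12.8 CPM, and a single cell held 91.8% of its adult reads. Oas1a, Oas2 and Oas3 of the same family were also among the higher genes, with log2 ratios of 4.05, 3.43 and 3.58.

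The lower effectors were Ifit2, at 0.468 CPM in puberty against 18.1 CPM in adult cells, and the GTPase gene Ifi47, at 6.55 and 37.2 CPM. Ifit2 had reads in 1.75% of the pubertal cells and in 17.1% of the adult cells, and so went against its neighbours Ifit1 and Ifit3. Outside the rule for naming genes, the ligands, receptors and single genes such as Ifit2, Ddx58 and Irf9 were named after their values were seen.

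**Figure D3:**
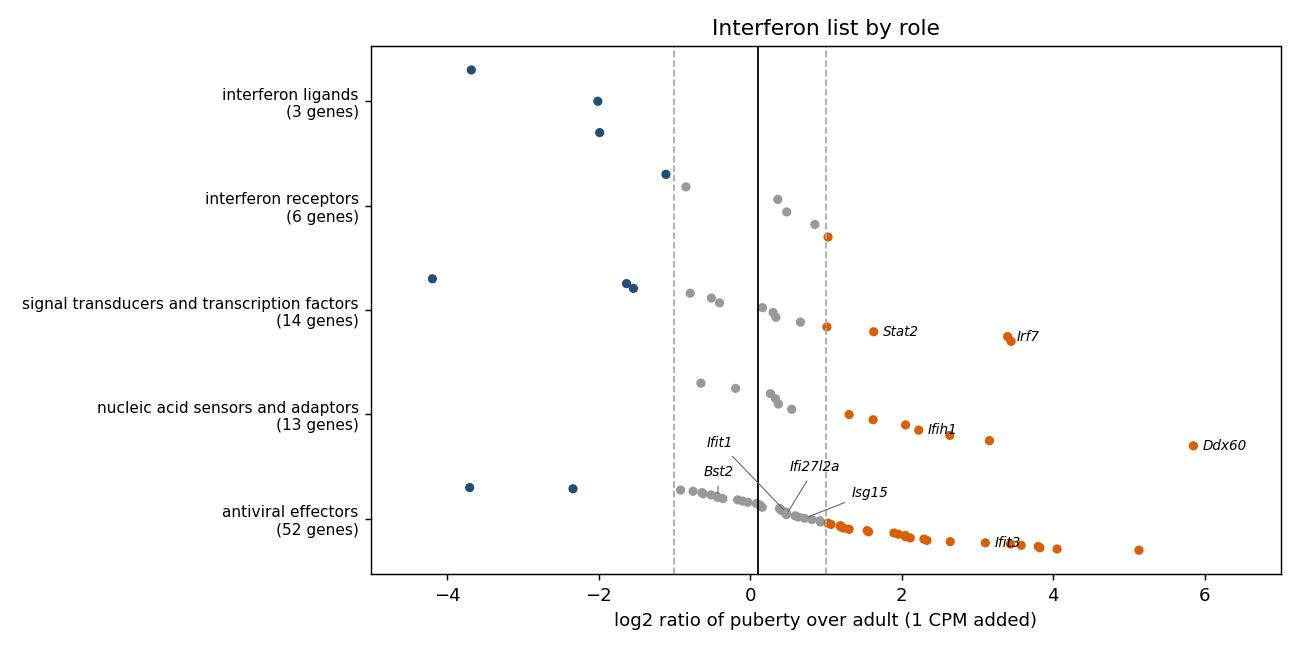
Log2 ratio of puberty over adult (horizontal axis, 1 CPM added) of the 88 tested genes of the interferon list, one point per gene, in rows by role and spread vertically only to part the points. Orange points are 2-fold or more higher and blue points 2-fold or more lower; dashed lines mark these limits and the solid line the median of all genes at 0.10, and 7 of 13 sensors, Ddx60 included, and 23 of 52 effectors are orange.

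List genes with the response-element motif were about as often higher in puberty as those without it. Of the list genes tested, 73 had a promoter window and 26 of these (35.6%) held the motif, as did 3.72% of all genes tested that had a window. With the motif, 10 genes (38.5%), Ddx60 among them, were higher and none was lower in puberty, and the median log2 ratio was 0.53. Of the 47 without it, 17 (36.2%) were higher and 9 were lower, with a median of 0.37, so that Socs3, Ifit2, the ligands and the other lower genes all lacked it.

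In puberty, the level of Ddx60 was higher in luminal-leaning than in basal-leaning cells. By their keratins, 137 pubertal and 93 adult cells leaned luminal and 33 and 59 leaned basal, and 1 cell was even. These are ranges of a ratio and not cell types, and 34 cells lay within 2-fold of the limit. Of the 8 basal markers not used for the split, the median luminal-leaning cell had 1 in puberty and 6 in the adult, and the median basal-leaning cell 6 and 7. Their summed level was 2367 and 5294 CPM in luminal-leaning cells and 16915 and 26538 CPM in basal-leaning cells, so adult luminal-leaning cells carried more basal-marker reads than pubertal ones. In pubertal cells, Ddx60 was at 75.1 CPM in luminal-leaning cells, with reads in 45 cells (32.8%, 25.1 to 41.4%), and at 1.82 CPM in basal-leaning cells, with reads in 4 cells (12.1%, 3.40 to 28.2%). The intervals of these shares overlapped, and no basal-leaning cell had more than 3 reads. In the adult it was at 0.108 CPM in luminal-leaning cells and had no read in the basal-leaning cells, which allows a share of up to 5.08%.

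Within the luminal-leaning cells, those richer in markers of mature cells and those richer in progenitor markers both had Ddx60 reads. The 108 mature-marker-rich pubertal cells were at 79.7 CPM, with 30.6% of cells positive, and the 23 progenitor-marker-rich cells at 52.2 CPM, with 39.1% positive. The corresponding adult groups, of 44 and 38 cells, were at 0.227 CPM and at 0. The makeup of the stages differed, since 63.2% of pubertal cells and 28.9% of adult cells were mature-marker-rich. The log2 ratio of Ddx60 between the stages was 6.04 in the former group and 5.73 in the latter.

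The other members varied between luminal-leaning and basal-leaning pubertal cells. Stat2 was at 101 CPM in luminal-leaning and 23.3 CPM in basal-leaning cells, with reads in 24.8% and 12.1% of them. Ifih1 was at 38.2 and 15.2 CPM, in 22.6% and 9.09%. The intervals of both pairs of shares overlapped. Irf7 was at 19.4 and 1.21 CPM, but its shares were 9.49% and 9.09%, and 1 cell held 52.3% of the luminal-leaning reads. Ifit3 went the other way, at 6.72 CPM in luminal-leaning and 11.5 CPM in basal-leaning cells, nearly all of it from 1 cell in each. Ifit1 and Isg15 had no read in basal-leaning cells of either stage. Compared within luminal-leaning cells, 5 of the 8 genes other than Ddx60 were higher in puberty, against 24.4% of all genes, with Ifi27l2a added at a log2 ratio of 2.97 (2.73 to 3.21). Ifih1 then had a ratio of 3.97 (3.46 to 4.44) and Stat2 of 2.20 (1.99 to 2.41). Irf7 had no adult luminal-leaning read.

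Within basal-leaning cells the picture differed. Of the 8 genes other than Ddx60, 1 was higher in puberty, against 24.2% of all genes: Ifit3, from 1 cell at 380.0 CPM. Ddx60 had 6 reads in 4 cells. Stat2 had a log2 ratio of −0.60 (−0.98 to −0.23) and Ifi27l2a of −1.57 (−1.79 to −1.35), while Ifih1 was at 0.10 (−0.40 to 0.59). These signs were not stable. With a basal lean of 4-fold or more required, which left 22 pubertal and 37 adult cells, Stat2 was at 0.37, Ifi27l2a at 1.59 and Ifih1 at −0.40. For the whole list, 36 genes were higher and 9 lower in luminal-leaning cells, where 24.4% and 16.3% of all genes were. In basal-leaning cells 23 were higher and 27 lower, where 24.2% and 22.9% of all genes were. The difference between the lineages was not tested.

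Of the other named genes, Rtp4, Xaf1, Oasl2 and Irgm2 had log2 ratios of 3.39, 2.57, 4.75 and 4.87 in luminal-leaning cells and −2.43, −0.97, −3.07 and −3.65 in basal-leaning cells. Usp18 and Dtx3l were higher in both, at 3.09 and 1.71 in luminal-leaning and 3.54 and 2.07 in basal-leaning cells. Socs3 was lower in both, at −3.69 and −6.16. Only 33 pubertal cells leaned basal, so a single cell weighs heavily there. Adult values can also rest on a single cell, as most adult reads of Oasl2 did.

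**Figure D4:**
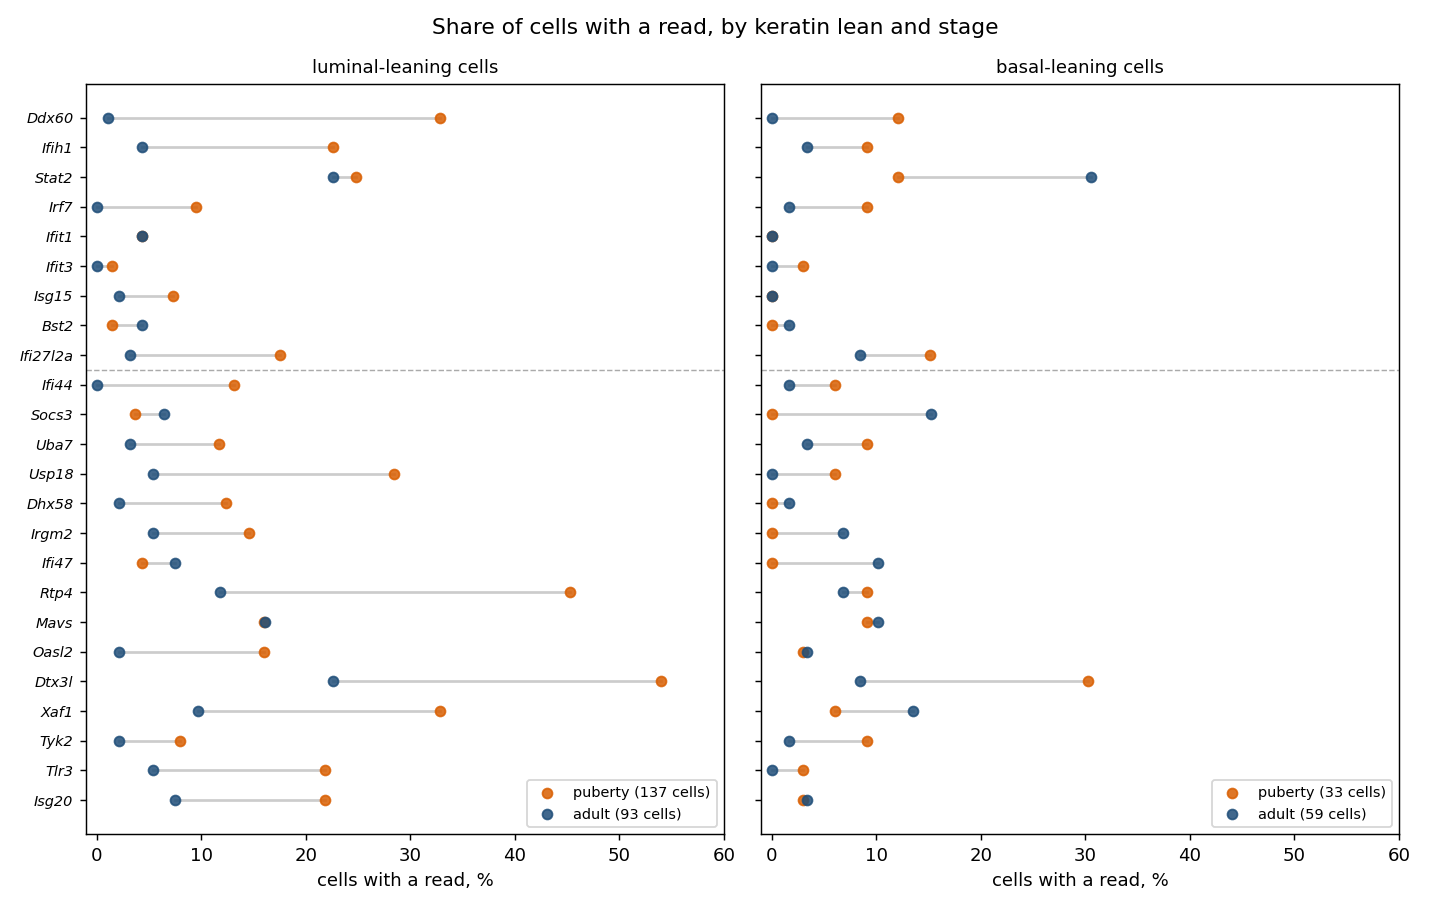
Share of cells with a read (horizontal axis, percent) of the 9 genes, above the dashed line, and of the 15 other named list genes, in luminal-leaning cells (left) and basal-leaning cells (right), with puberty in orange and the adult in blue. Ddx60 was found in 32.8% of pubertal and 1.08% of adult luminal-leaning cells; Stat2 lay at 12.1% and 30.5% in basal-leaning cells.

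The list also depended on which pubertal cells were taken. Compared with all adult cells, cells 1 to 74 had 30 list genes higher and 18 lower, where 20.2% and 22.6% of all genes were, and cells 75 to 148 had 38 higher and 14 lower, where 19.9% and 22.0% were. Cells 149 to 221 had 22 higher and 25 lower, where 18.3% and 25.4% of all genes were, and the median log2 ratio of the list was −0.16. For this last run the shares of the list, 25.0% and 28.4%, lay nearer to those of all genes. Within luminal-leaning cells, an alternative added after the data were seen, the same run gave 22 higher and 22 lower, where 18.5% and 28.6% of all genes were. Cells 1 to 148 gave 40 higher and 9 lower, where 23.9% and 17.9% were. The part of the makeup of these runs in the result, and that of their capture, was not tested.

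**Figure D5:**
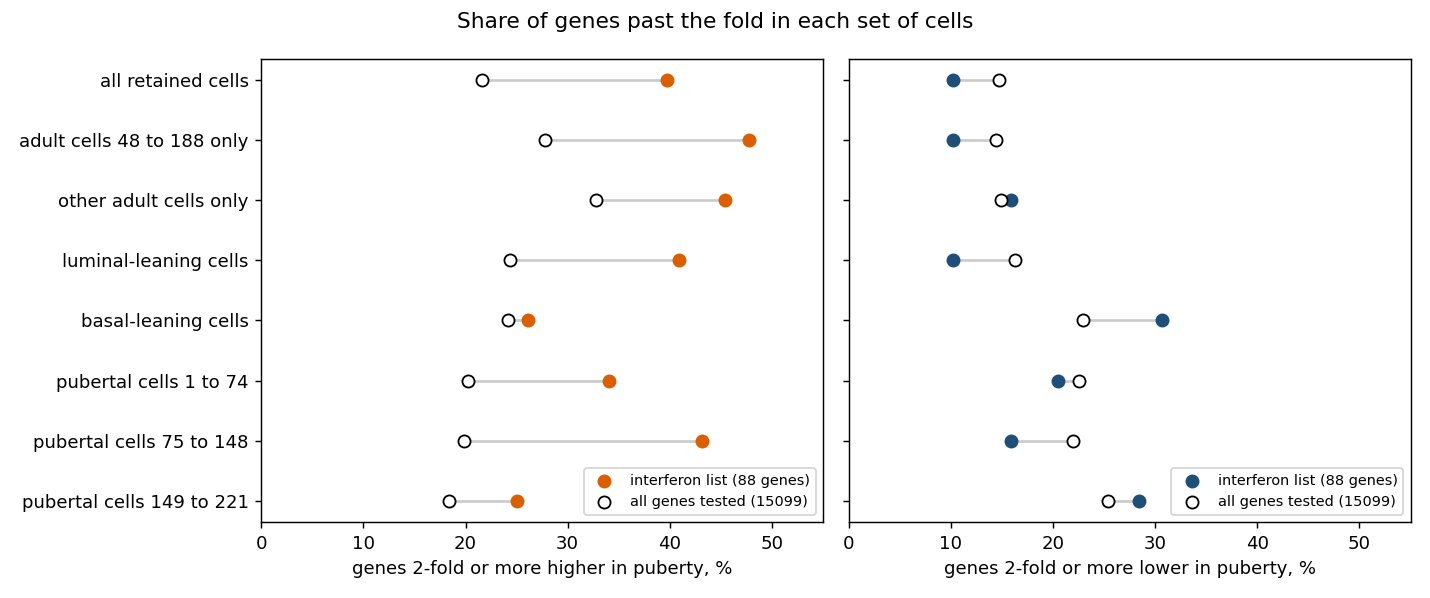
Percent of genes 2-fold or more higher (left) and lower (right) in puberty, for the 88 tested genes of the interferon list (filled points) and all 15099 genes (open points), in each set of cells compared. The list lies above all genes on the left in luminal-leaning cells (40.9% against 24.4%) and near them in basal-leaning cells (26.1% against 24.2%) and in pubertal cells 149 to 221 (25.0% against 18.3%).

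In single cells, more genes of the list were detected in puberty, while their summed level differed in direction between the lineages. Of the 97 list genes other than Ddx60, the median pubertal cell had reads of 16 (quartiles 12.0 and 22.5) and the median adult cell of 12 (9 and 15), at equal depth. The median number of all genes detected was 2818 and 2655. Luminal-leaning cells had medians of 18 list genes in puberty and 13 in the adult, and basal-leaning cells of 11 in both. For all genes the medians were 2829 and 2477 in luminal-leaning cells and 2744 and 2806 in basal-leaning cells. The summed level of these genes averaged 7110 CPM over pubertal cells and 7409 CPM over adult cells. Among luminal-leaning cells the average was 7450 CPM for pubertal and 6119 CPM for adult ones, and among basal-leaning cells 5696 and 9444 CPM. Ifitm3 alone was at 1366 CPM in luminal-leaning pubertal and 1396 CPM in luminal-leaning adult cells.

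Pubertal cells with and without a Ddx60 read differed little in the median number of other list genes, and more in the upper quartile. The 49 cells with a read had a median of 16 other list genes detected (quartiles 13.0 and 26.0) and the 122 without had 15 (11 and 20). For all genes the medians went the other way, at 2717 in cells with a read and 2845 in cells without. Within luminal-leaning pubertal cells, Isg15 was present in 13.3% (5.05 to 26.8%) of cells with and 4.35% (1.20 to 10.8%) of cells without a Ddx60 read, Oasl2 in 26.7% (14.6 to 41.9%) and 10.9% (5.34 to 19.1%), and Uba7 in 20.0% (9.58 to 34.6%) and 7.61% (3.11 to 15.1%). Irf7 was present in 15.6% and 6.52%, Ifi27l2a in 22.2% and 15.2%, and Ifit1 in 6.67% and 3.26%. Ifit3 and Bst2 were each present in 4.44% of cells with and in no cell without a Ddx60 read. Stat2 was present in 24.4% and 25.0%, Ifih1 in 22.2% and 22.8%, and Usp18 in 24.4% and 30.4%. The intervals of each of these pairs overlapped, which does not decide whether the shares differ. Whether any of these genes goes with Ddx60 cell by cell was not tested.

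Correlations across the 171 pubertal cells were low, and all cells share the same thinned depth. Among the 5 genes with the highest Pearson correlation with Ddx60, of 7528 genes with a read in at least 10% of these cells, compared on log2(thinned reads + 1), were Cisd3 (0.32), Marchf8 (0.31), Dhrs3 (0.30) and Tut7 (0.30), none of them on the interferon list. Among the members the values ran from 0.02 for Stat2 to 0.33 for Isg15, which had a read in fewer cells than that minimum. In counts this sparse such values are not a finding.

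Markers of other cell types were checked beside these results. Ptprc, the pan-leukocyte marker, had no read in either stage. Of 11 immune markers, 4 were at 0 in puberty and 3 in the adult. Their summed level was 7.60 CPM in puberty, where the highest cell was at 1160 CPM, and 85.3 CPM in the adult, where the highest cell was at 11010 CPM. Only 2 pubertal and 1 adult cells carried 2 or more immune markers, and without them 37.5% of the list and 21.7% of all genes were higher. In Ddx60-positive cells 10 of the 11 were at 0, with a summed level of 1.22 CPM. Fibroblast markers, all 6 detected, summed to 1269 CPM in pubertal and 1000.0 CPM in adult cells, and endothelial markers to 77.3 and 26.1 CPM. In puberty the endothelial markers summed to 144 CPM in cells with a Ddx60 read and 50.2 CPM in cells without one, and 10.2% and 3.28% of these cells carried 2 or more of them. Fibroblast markers summed to 1169 and 1309 CPM in the same cells. Erythroid markers summed to 336 CPM in puberty, where the highest cell was at 57170 CPM, and to 4.67 CPM in the adult, and all 3 were at 0 in cells with a Ddx60 read. Without cells carrying 2 or more fibroblast or 2 or more endothelial markers, 39.8% of the list and 22.0% of all genes were higher. Ddx60 then had a log2 ratio of 5.94 and Ifih1 of 3.96.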

How the data were processed

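The deposited values were raw counts of read pairs per gene, 1 table per cell, made by the authors with Subread on mm10 and featureCounts with the RefSeq annotation built into Rsubread; versions and the use of strand are not given in the sources used here. The protocol has no molecular identifiers, so amplified copies are counted separately. Of 27179 identifiers, 25275 matched RefSeq on GRCm38.p6, the assembly of mm10; the unmatched ones held 1.84% of read pairs. Removing these with 15 mitochondrial and 124 ribosomal genes left 25136. Retained cells were thinned to 100000 read pairs (seed 1; Python 3.11.15). Shares carry exact Clopper-Pearson intervals, levels exact Poisson intervals and ratios exact conditional intervals at the 95% level; for a share of 0 the limit is that of 3 cells, and for a level of 0 that of 3 reads over the group. The log2 interval is that of the ratio with 1 CPM added. A gene was counted as higher or lower at a log2 ratio of 1 or −1. Scaling factors for 1 alternative came from edgeR 4.0.16. Luminal-leaning cells were split by the number of mature or progenitor markers detected. The calculation was checked on simulated counts. Beside the 9 genes, those named were the 15 list genes reaching 20 CPM in 1 stage with the largest absolute log2 ratio and the 5 genes most correlated with Ddx60; values of some genes under this rule or on the list are not reported here. The genes and lists were chosen with earlier results of these data known. The combined count table was not used.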

Additional observations from a re-analysis of the deposited data

Results flagged for a closer look

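Reads of these genes were also present in the 50 pubertal and 71 adult cells that failed the coverage filter and entered no comparison; these cells held 2342991 and 2428723 read pairs in all, unthinned. Ddx60 had 568 reads in 8 of the pubertal cells and 13 reads in 2 of the adult cells. Ifit1 had 449 reads in 1 pubertal cell. Stat2 had 182 reads in the pubertal and 567 in the adult cells, so that the order of the stages was the opposite of that in the retained cells. Irf7 had 23 and 5 reads, Ifi27l2a 466 and 6, and Ifih1 19 and 4, in the pubertal and adult cells.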

How the results depend on the processing

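No paired analysis was possible because no test was made and the numbers in the titles only name cells. Ddx60 was chosen for its near absence from adult cells, so its values here are a description and no check of its stage difference. The Ddx60 log2 ratio was 5.85, and its value, without regard to its interval, stayed above 1 in all 19 alternatives. It was 2.81 with 10 CPM added and 5.41 with at least 200000 read pairs and 2500 genes. It was 5.94 against adult cells 48 to 188 and also without cells carrying fibroblast or endothelial markers. The successive runs of pubertal cells gave 4.82, 6.83 and 4.20. Luminal-leaning cells gave 6.10 and basal-leaning cells 1.49, and a lean of 4-fold or more gave 6.21 and 1.49. In all basal-leaning cells the value rested on 6 pubertal reads and no adult read, and its interval, 0.43 to 1.49, reached below 1. The 5 of 9 members counted as higher, Ddx60 included, became 8 without the highest cells and 3 of the 5 members reaching 20 CPM. They became 3 for pubertal cells 149 to 221, and 2 in basal-leaning cells at either limit. Of all genes 21.7% were higher, and in these settings 21.6%, 19.9%, 18.3%, 24.2% and, for basal-leaning cells at 4-fold, 25.2%. The median of the other 8 members, 1.17, was 0.63 with 10 CPM added, 1.77 without the highest cells, 2.04 under the stricter coverage, 1.66 and 2.25 against adult cells 48 to 188 and the others, 1.73 for pubertal cells 1 to 74, 0.39 for 149 to 221, 2.57 in luminal-leaning cells and 2.55 at 4-fold, −0.10 in basal-leaning cells and 0.00 at 4-fold. The 35 of 88 list genes higher (39.8%, all genes 21.7%) became 23 of the 56 reaching 20 CPM (41.1%, all genes 19.9%). For pubertal cells 149 to 221 there were 22 (25.0%, all genes 18.3%). In basal-leaning cells there were 23 (26.1%, all genes 24.2%), and at 4-fold 20 (22.7%, all genes 25.2%). The 9 lower (all genes 14.7%) became 4 with 10 CPM added (all genes 6.51%) and 3 among genes reaching 20 CPM (all genes 14.3%). Against the other adult cells there were 14 (all genes 14.9%). The runs gave 18, 14 and 25, where 22.6%, 22.0% and 25.4% of all genes were lower. In basal-leaning cells 27 were lower (all genes 22.9%), and 28 at 4-fold (all genes 24.3%). The share of pubertal cells with Ddx60, 28.7%, was 45.5% for cells 1 to 74, 7.32% for 149 to 221, 12.1% in basal-leaning cells, 9.09% at 4-fold and 13.5% at 5 reads. In luminal-leaning cells, added after seeing the data, pubertal cells 1 to 148 gave 6.32 for Ddx60, 2.73 for the other members and 38.5% of cells. Cells 149 to 221 gave 4.67 for Ddx60 and 10.7% of cells. There 22 list genes were higher and 22 lower, where 18.5% and 28.6% of all genes were. In basal-leaning cells Stat2 was at −0.60, Irf7 at −0.19, Ifi27l2a at −1.57 and Ifih1 at 0.10. At 4-fold these genes were at 0.37, 0.54, 1.59 and −0.40 in the same order. Subsets hold fewer cells; beyond that the cause was not tested. With 1 sample per stage, animals, captures and stages cannot be told apart.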
